A study of Mus musculus with 3 samples.

Results

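The cells described here are bone marrow cells in which Camp, Ngp, Ltf, Lcn2 and Chil3 together made up at least 0.5% of the UMIs (unique molecular identifiers, each standing for 1 captured RNA molecule). They were picked from cells with at least 500 genes, at least 1000 UMIs and under 10% mitochondrial UMIs, and they numbered 145 of 18241 cells of the non_mCherry and control libraries and of 28753 cells in all 3 libraries of the series. Of the 145, 28 came from 9005 non_mCherry cells (0.311%; exact 95% Clopper-Pearson interval 0.207 to 0.449) and 117 from 9236 control cells (1.27%; 1.05 to 1.52). They are set against cells of the same libraries with at least 20 Elane UMIs and a smaller share of the 5 genes, called Elane cells below (1041 in non_mCherry and 2783 in control). The values that chose the cells are given as a description only. The cells nearest to the threshold had a share of 0.523% in non_mCherry and 0.502% in control on the inner side, and 0.372% in non_mCherry and 0.497% in control on the outer side.

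The study profiled bone marrow of C57BL/6 mice with droplet single-cell RNA sequencing of the 10x Genomics type. Reporter-negative (non_mCherry) and reporter-positive (mCherry) cells were taken from the same animal, which carried Mx1-Cre and, in heterozygous form, a conditional Runx1-Runx1t1 knock-in followed by mCherry and was induced with poly(I:C). Runx1-Runx1t1 encodes the leukemia fusion AML1-ETO. The control cells are from a wild-type animal, for which treatment with poly(I:C) and age are not given in the sources used here. Mx1-Cre acts in interferon-responsive cells and so is not restricted to a blood lineage. All cells were sorted as negative for DAPI (a dye that marks dead cells), negative for lineage markers (Lin-) and positive for c-kit, the receptor of stem cell factor, and the antibodies of the lineage mix are not given in the sources used here. With 1 library per group, cells are not replicates, no difference has a test or a replicate check, and all intervals cover counting error only. Genotype, animal, sort and library cannot be told apart in any comparison of non_mCherry with control. In the passing cells Runx1t1 was at 8.45 CPM (UMIs of a gene per 1000000 UMIs of the set) in mCherry, 0.326 CPM in non_mCherry and 0.220 CPM in control, so it was highest in the library sorted for the reporter. The libraries held 9751 barcodes and 92776556 UMIs in non_mCherry and 9782 barcodes and 150702749 UMIs in control, with a median of 8388 and 15392 UMIs per passing cell.

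Neutrophils mature in the bone marrow through ordered steps, and their granules are filled in the order in which the proteins are made. Primary granule proteins such as Elane (neutrophil elastase) and Mpo (myeloperoxidase) are made in promyelocytes, secondary granule proteins in the dividing and just post-mitotic myelocytes and metamyelocytes, and gelatinase and secretory genes in band and segmented cells. Camp encodes the antimicrobial peptide precursor cathelicidin, Ngp the neutrophilic granule protein, Ltf the iron-binding protein lactoferrin, Lcn2 the siderophore-binding lipocalin, and Chil3 the chitinase-like protein Ym1, which macrophages and monocytes also make. The transcription factor Cebpe is required for secondary granule genes in mice.

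The promoters of the 5 genes are shown because the genes chose the cells together and C/EBP factors are known regulators of secondary granule genes. In the mm10 annotation, Camp (chromosome 9, 109847379 to 109849617, minus strand), Ngp (110419747 to 110423012, plus strand) and Ltf (111019271 to 111042767, plus strand) lie on the same chromosome. Lcn2 lies on chromosome 2 (32384633 to 32388252, minus strand) and Chil3 on chromosome 3 (106147554 to 106167564, minus strand). The sequences run 5′ to 3′ from 250 bases before to 50 bases after the RefSeq start in GRCm38.p6, the assembly of mm10. They cover chr9:109849407-109849706 (minus strand), chr9:110419558-110419857 (plus), chr9:111019042-111019341 (plus), chr2:32387690-32387989 (minus) and chr3:106167515-106167814 (minus). Capitals mark matches to TTNNGNAA, a C/EBP-type motif searched on both strands.
Camp: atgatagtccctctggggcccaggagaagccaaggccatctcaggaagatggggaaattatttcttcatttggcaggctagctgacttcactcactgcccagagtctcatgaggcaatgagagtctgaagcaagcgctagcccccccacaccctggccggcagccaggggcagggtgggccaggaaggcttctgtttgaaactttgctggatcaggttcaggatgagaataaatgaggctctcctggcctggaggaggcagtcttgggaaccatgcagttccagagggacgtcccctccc
Ngp: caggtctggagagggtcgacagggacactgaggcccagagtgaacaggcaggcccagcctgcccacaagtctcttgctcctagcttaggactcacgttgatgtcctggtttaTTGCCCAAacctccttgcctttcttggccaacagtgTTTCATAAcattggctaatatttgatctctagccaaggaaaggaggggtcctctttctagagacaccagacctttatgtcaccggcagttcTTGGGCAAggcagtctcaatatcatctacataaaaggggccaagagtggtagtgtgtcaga
Ltf: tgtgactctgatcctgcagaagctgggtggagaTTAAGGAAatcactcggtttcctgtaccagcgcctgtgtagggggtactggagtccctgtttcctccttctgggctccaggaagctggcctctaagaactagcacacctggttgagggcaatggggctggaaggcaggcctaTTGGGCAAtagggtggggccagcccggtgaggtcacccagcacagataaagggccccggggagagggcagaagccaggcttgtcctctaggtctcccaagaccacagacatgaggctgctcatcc
Lcn2: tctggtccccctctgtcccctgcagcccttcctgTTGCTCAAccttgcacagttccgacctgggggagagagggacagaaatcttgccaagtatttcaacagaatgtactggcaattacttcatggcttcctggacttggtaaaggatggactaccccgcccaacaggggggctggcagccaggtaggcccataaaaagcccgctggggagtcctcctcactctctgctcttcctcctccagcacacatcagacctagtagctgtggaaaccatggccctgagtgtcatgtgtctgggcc
Chil3: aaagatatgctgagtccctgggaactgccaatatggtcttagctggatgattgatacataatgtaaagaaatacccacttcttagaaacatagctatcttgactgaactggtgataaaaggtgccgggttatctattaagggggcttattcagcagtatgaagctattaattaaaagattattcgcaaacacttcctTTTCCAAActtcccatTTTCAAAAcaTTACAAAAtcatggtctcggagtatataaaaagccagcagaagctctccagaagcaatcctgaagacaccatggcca
The motif had 3 matches in Ngp, at positions -138, -102 and -11 from the start, 2 in Ltf (-217 and -75), 1 in Lcn2 (-216), 3 in Chil3 (-53, -37 and -27) and none in Camp. Of 32851 promoters in the same table, 40.7% held at least 1 match. The PU.1-type motif GAGGAAG was found in 13.6% of the promoters and, of the 5, in Lcn2 only. A match is a run of letters, and no binding was measured.

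The cells held fewer UMIs than the Elane cells. The Elane cells were chosen by a count of at least 20 Elane UMIs, which favors cells of many UMIs. All passing cells had a median of 8388 UMIs in non_mCherry and 15392 in control. The median was 6114 UMIs per cell in non_mCherry and 4542 in control, against 19376 in non_mCherry Elane cells and 20786 in control Elane cells. The median number of genes was 1474 in non_mCherry and 1434 in control, against 4030 and 4170 in the Elane cells of these libraries. With every cell thinned to 2000 UMIs, which left out 8 control members and 3 control Elane cells, the medians were 657.5 and 766 genes, against 980 and 991 in the Elane cells of non_mCherry and control. Fewer genes were therefore counted in the secondary granule cells at the same depth too. The libraries had 24 cell barcodes in common, and 1 of these was a control member and none a non_mCherry member.

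Kit was lower and Ly6g higher in these cells than in the Elane cells. Kit, which encodes c-kit, was at 8.28 CPM (2 UMIs) in non_mCherry members and 30.4 CPM (24 UMIs) in control members, against 51.2 and 52.2 CPM in the Elane cells of these libraries. Ly6g, which encodes the Gr-1 antigen Ly-6G of maturing neutrophils, was at 480 CPM in non_mCherry members and 384 CPM in control members, while Elane cells had 0 UMIs in non_mCherry and 0.117 CPM in control. The share of these cells in a library is therefore a share of what passed a c-kit-positive, lineage-negative gate, and a gate difference between sorts cannot be told apart from a difference in marrow content.

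Within the members, Camp and Ngp were the most abundant of the 5 genes. Camp was at 35279 CPM in non_mCherry (lowest cell 0, median 124, highest 1343 UMIs) and 31247 CPM in control (0, 86 and 1396 UMIs). Ngp was at 37042 CPM in non_mCherry and 27071 CPM in control. Lcn2 was the gene found most widely, with a UMI in 28 of 28 non_mCherry and 111 of 117 control members, and stood at 17511 and 11785 CPM there. Ltf was at 6334 CPM in non_mCherry and 5699 CPM in control, and Chil3 at 4632 and 4663 CPM. The range over cells was wide, since each of Camp, Ngp, Ltf and Chil3 was at 0 in some members of both libraries.

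Cells that should lack the 5 genes held a low level of them, as free RNA in droplets can give. In 1086 non_mCherry and 1364 control erythroid cells (at least 10 UMIs of Klf1 and Car1, median depth 15803 and 20336 UMIs), the 5 genes summed to 9.22 CPM (95% Poisson interval 7.94 to 10.7) and 10.5 CPM (9.37 to 11.7). At least 1 UMI of them was seen in 12.15% and 15.98% of these erythroid cells, and none of them reached the share of 0.5%. Of cells with at least 10 Pf4 UMIs, a megakaryocyte marker, 1 of 96 in non_mCherry and 3 of 264 in control were members, and of cells with at least 10 B lineage UMIs 1 of 2951 in non_mCherry and 0 of 65 in control. The members as a whole lay at 100799 CPM in non_mCherry and 80465 CPM in control, a level that their choice by these genes sets.

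The cells spread over the whole range of the 5-gene share. In non_mCherry, 3 cells lay at 0.5 to 1%, 3 at 1 to 2%, 4 at 2 to 5%, 7 at 5 to 10% and 11 at 10% or more, with a median of 7.91% and a highest value of 20.7%. In control the counts were 36, 16, 11, 8 and 46, with a median of 3.49% and a highest value of 21.2%. Over these ranges Il1b was at 2218, 2400, 401, 11.6 and 0 CPM in non_mCherry and at 1265, 934, 0, 45.6 and 5.92 CPM in control. Fcnb ran the other way, at 0, 0, 0, 336 and 764 CPM in non_mCherry and 11.9, 0, 183, 304 and 648 CPM in control. Most of these ranges hold under 20 cells and are thin. The order of the ends was the same in both libraries, with Il1b in cells of low share and Fcnb in cells of high share.

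Judged by S100a8 and S100a9 alone, the marker label held for all 28 non_mCherry members and for 92 of 117 control members (78.6%; 70.1 to 85.7). S100a8 and S100a9, the subunits of calprotectin and the most abundant cytosolic proteins of neutrophils, made up at least 2% of UMIs in these cells, and they are called S100-rich members. S100a8 was at 108031 CPM in non_mCherry and 68727 CPM in control members, and S100a9 at 130257 and 91647 CPM. The other 25 control members were poor in both and are described last. No non_mCherry member was poor in both, and 0 of 28 allows a share of up to 12.3% (upper Clopper-Pearson bound). Markers of other lineages did not enter this label. Without members with at least 10 UMIs of erythroid, B lineage or megakaryocyte markers, 26 non_mCherry and 114 control members remained. The highest non_mCherry member had 19592 CPM of basophil and mast cell markers. To show how the cells varied, the S100-rich members were divided after their values were seen. Cells with at least 20 Elane UMIs formed an Elane-carrying set (3 in non_mCherry, 10 in control), and of the rest those with at least 0.7% of UMIs in S, G2 and M phase genes a cycle-rich set (7 and 22). The remaining cells were split at a 5-gene share of 5% into a high-share set (8 and 31) and a low-share set (10 and 29). No test is given for sets made in this way.

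**Figure D1:**
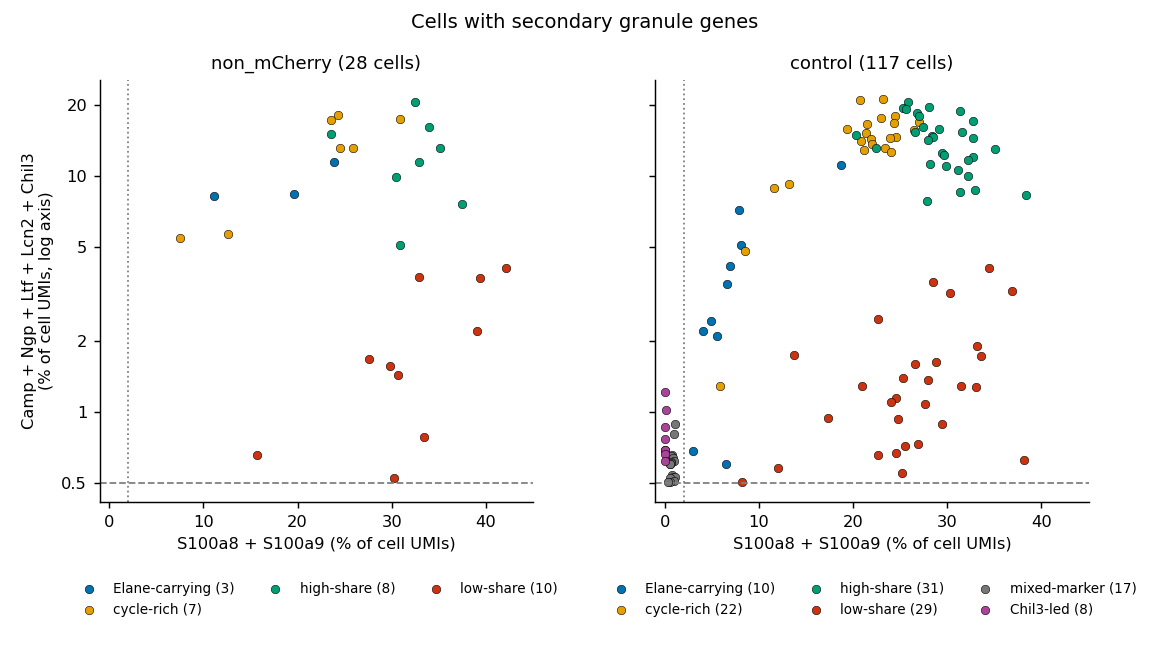
Each point is 1 cell of the non_mCherry (left, 28 cells) or control (right, 117 cells) library, with S100a8 and S100a9 on the x axis and the 5 genes on the log y axis, both as a percent of the cell's UMIs, and with color for the set. All non_mCherry cells lie right of the dotted line at 2%, while 25 control cells (17 mixed-marker and 8 Chil3-led) lie left of it.

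The 4 sets differed in share between the libraries by less than their counting error. Elane-carrying cells were 10.7% of them in non_mCherry (3 of 28; 2.27 to 28.2) and 10.9% in control (10 of 92; 5.34 to 19.1). Cycle-rich cells were 25% (10.7 to 44.9) and 23.9% (15.6 to 33.9), high-share cells 28.6% (13.2 to 48.7) and 33.7% (24.2 to 44.3), and low-share cells 35.7% (18.6 to 55.9) and 31.5% (22.2 to 42.0). With 28 non_mCherry cells the intervals are wide and overlap in every set, so no difference in makeup was detectable at this depth. The S100-rich members themselves were 0.311% of non_mCherry cells (0.207 to 0.449) and 0.996% of control cells (0.804 to 1.22), so the share in the library was lower in non_mCherry without the 25 other control cells too. The passing cells also differed in makeup, with 2951 B lineage cells in non_mCherry and 65 in control, and 1041 and 2783 Elane cells. A share of all passing cells depends on this makeup, and its part in the difference was not tested.

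**Figure D2:**
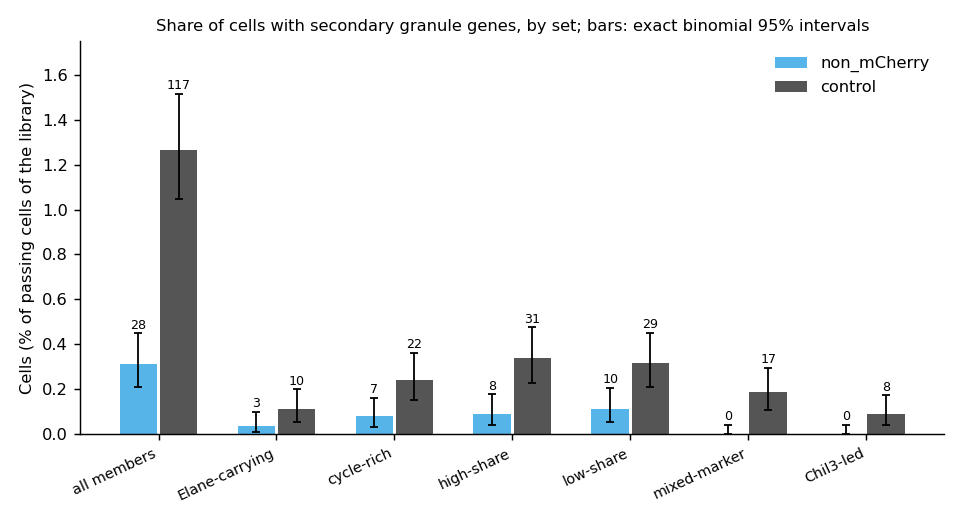
Bars give the percent of passing cells of each library that were members, in all and by set, with non_mCherry left of control and exact 95% Clopper-Pearson intervals. Members were 0.311% of non_mCherry and 1.27% of control cells, and the mixed-marker and Chil3-led sets had no cell in non_mCherry.

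Depth differed between the sets. The median was 19326 UMIs in non_mCherry and 22574 in control Elane-carrying cells, 16504 and 10456 in cycle-rich cells, 6114 and 4782 in high-share cells and 3722 and 2498 in low-share cells. A doublet score of at least 0.25 was found in 0 of 28 non_mCherry and 8 of 117 control members, against 2.17% and 2.23% of all passing cells. Of those 8 control members, 7 were Elane-carrying cells and 1 was cycle-rich. In the 10 control Elane-carrying cells Elane was at 9797 CPM and Mpo at 4476 CPM, beside 18979 CPM of Camp. In the 3 non_mCherry Elane-carrying cells Elane was at 2561 CPM and Mpo at 224 CPM, beside 46020 CPM of Camp. Whether 2 cells shared a droplet in the control set was not tested beyond the score.

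Primary granule RNA was low in the other S100-rich members. Cells with more Elane UMIs had been set apart as Elane-carrying, so the split itself limited Elane in the rest, and its level is a description. Prtn3 and Ms4a3 did not make the split, and how far their levels follow from it was not tested. Elane was at 167 CPM in non_mCherry and 157 CPM in control cycle-rich cells, 102 and 126 CPM in high-share cells and 26.8 and 78.8 CPM in low-share cells. The erythroid cells, which should lack Elane, held 112 CPM in non_mCherry and 315 CPM in control at 15803 and 20336 median UMIs, so that Elane lay below that background in all 3 control sets and in the non_mCherry high-share and low-share sets. Prtn3, which encodes proteinase 3, was at 363 and 408 CPM in cycle-rich cells, 81.8 and 238 CPM in high-share cells and 134 and 214 CPM in low-share cells. Ms4a3, a membrane protein gene of granulocyte-monocyte progenitors, stood at 991 CPM in non_mCherry and 1051 CPM in control Elane-carrying cells and at 285 and 217 CPM in cycle-rich cells. It was at 40.9 and 39.7 CPM in high-share cells, and at 0 and 11.3 CPM in low-share cells.

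Early and late granule genes changed places between the sets. Fcnb, which encodes ficolin B, was at 629 CPM in non_mCherry and 825 CPM in control cycle-rich cells, 20.4 and 185 CPM in high-share cells and 0 UMIs in the low-share cells of both libraries. Cebpe followed the same order, with 825 and 953 CPM in cycle-rich cells, 409 and 688 CPM in high-share cells and 107 and 56.3 CPM in low-share cells. Ltf was highest in the high-share set, at 15046 CPM in non_mCherry and 14867 CPM in control, against 6413 and 7747 CPM in cycle-rich cells and 777 and 462 CPM in low-share cells. Ltf is 1 of the 5 genes whose sum made the split, so this order is a description. Mmp8, the neutrophil collagenase, was at 49.1 CPM in non_mCherry and 51.0 CPM in control cycle-rich cells, 1676 and 1145 CPM in high-share cells and 2974 and 2635 CPM in low-share cells. Lcn2 held up best of the 5 genes in the low-share set, at 14120 CPM in non_mCherry and 8839 CPM in control, and was the leading gene of the 5 in 10 of 10 and 27 of 29 of these cells.

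Retnlg, Cxcr2 and Il1b were highest in the low-share cells, whereas Cd177 and Ly6g were highest in the high-share cells. Retnlg, a resistin-like gene of late neutrophils, was at 196 CPM in non_mCherry and 319 CPM in control cycle-rich cells, 13349 and 4208 CPM in high-share cells and 57177 and 37913 CPM in low-share cells. Cxcr2, the receptor for chemokines that draw neutrophils out of the marrow, was at 29.5 and 34.03 CPM in cycle-rich cells, 225 and 146 CPM in high-share cells and 857 and 766 CPM in low-share cells. Il1b, which encodes interleukin 1 beta, was at 9.82 and 0 CPM in cycle-rich cells, 0 and 33.1 CPM in high-share cells and 1420 and 3029 CPM in low-share cells. Retnlg and Cxcr2 ran in the same order in both libraries, and Il1b was higher in the low-share cells than in the cycle-rich and high-share cells of both. Cd177, a surface glycoprotein gene of neutrophils, was at 1139 and 970 CPM in cycle-rich cells, 1901 and 1561 CPM in high-share cells and 991 and 642 CPM in low-share cells. Ly6g was at 265 and 204 CPM in cycle-rich cells, 1043 and 1164 CPM in high-share cells and 938 and 608 CPM in low-share cells. Ribosomal protein RNA ran the other way between the first sets, with Rplp0 at 2180 CPM in non_mCherry and 1583 CPM in control cycle-rich cells, against 552 and 589 CPM in high-share cells.

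**Figure D3:**
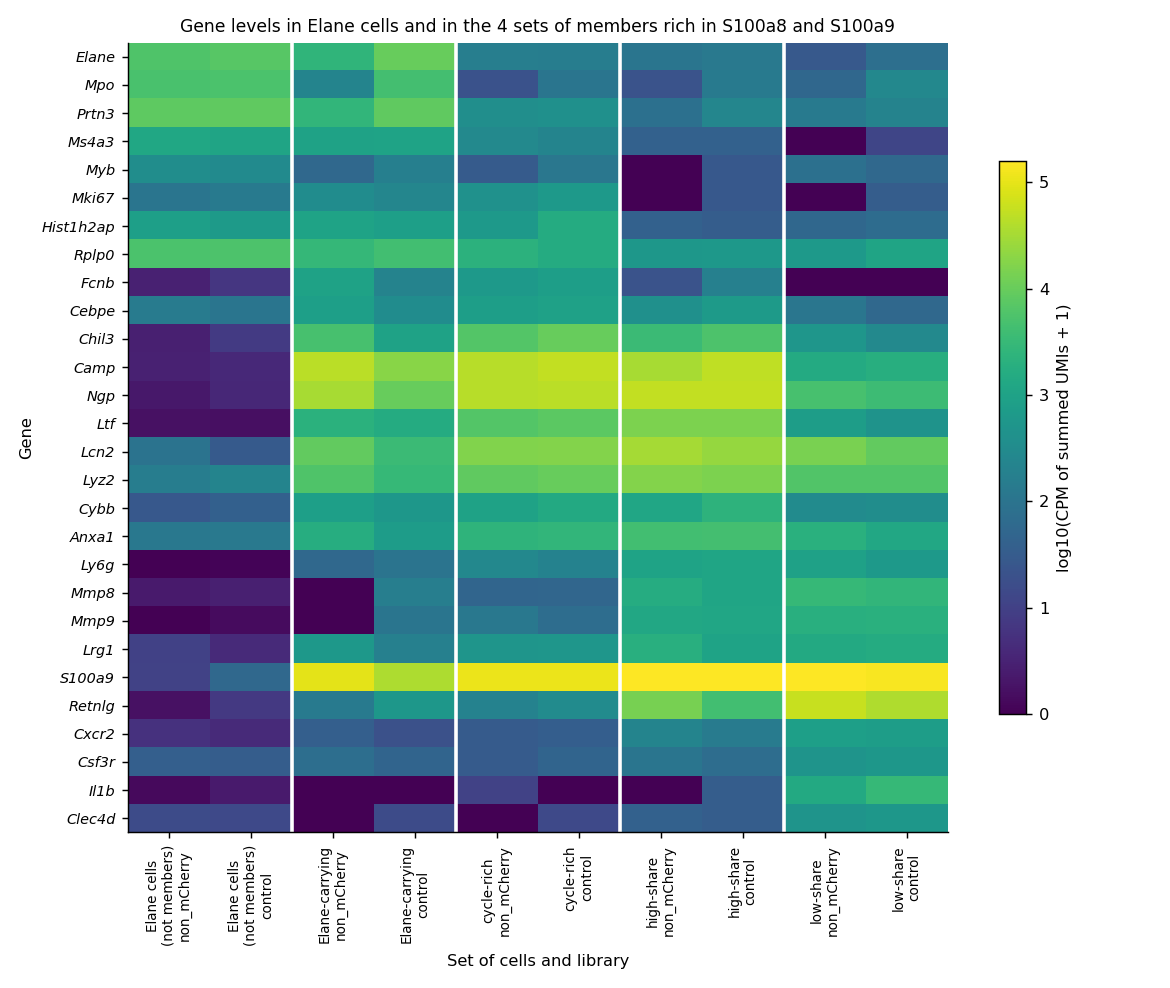
Rows are genes and columns are sets of cells by library (Elane cells and the 4 sets of S100-rich members, non_mCherry left of control), and color gives log10(CPM + 1) of summed UMIs. Elane and Mpo are high in the Elane cells and in the control Elane-carrying set, Fcnb is at 0 in the low-share set, and Retnlg, Cxcr2 and Il1b are highest there, at 57177, 857 and 1420 CPM in non_mCherry.

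Cycle-rich cells were then compared with high-share cells across all genes. A gene was measured when it had at least 50 CPM in 1 of the compared sets and at least 20 UMIs over both, and it was called higher or lower at a 2-fold ratio of (CPM + 5). In non_mCherry, 299 of 769 genes were called higher in cycle-rich cells (38.9%) and 104 lower (13.5%), and in control 574 of 2204 were higher (26.0%) and 206 lower (9.35%). Scaled to a total without the 5 genes, Elane, S100a8 and S100a9, the calls were 33.7% higher and 21.2% lower in non_mCherry and 21.0% higher and 14.2% lower in control. Outside the phase lists that made the set, the histone gene Hist1h1b was at 245 CPM in non_mCherry and 796 CPM in control cycle-rich cells, with 0 UMIs in the high-share cells of both. Stmn1, a microtubule regulator of dividing cells, was at 953 and 1093 CPM, against 102 and 59.5 CPM in high-share cells. Ptma, which encodes the chromatin protein prothymosin alpha, was at 3477 and 3089 CPM, against 143 and 397 CPM. Genes of dividing cells are tied to the phase genes that made the set, so these values are a description.

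Cytosolic ribosomal protein genes were higher in cycle-rich cells for 72 of 76 genes in non_mCherry and 52 of 76 in control, with medians of 2.14 and 1.17 on the log2 scale beside medians of 0.47 and 0.26 over all measured genes. With the other scaling, 69 and 32 of the 76 were called. Of the late neutrophil genes, 12 of 15 measured in non_mCherry and 13 of 22 in control were lower in cycle-rich cells and none was higher. The secondary and tertiary granule genes outside the 5 were lower for 10 of 20 and 7 of 24, and higher for 2 and 1. Mmp9 (gelatinase B) was at 118 CPM in non_mCherry and 72.3 CPM in control cycle-rich cells, against 1329 and 1184 CPM in high-share cells. S100a6, a calcium-binding protein gene, was at 511 and 323 CPM, against 6399 and 1720 CPM.

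Low-share cells were compared with high-share cells in the same way. In non_mCherry, 67 of 415 measured genes were called higher in low-share cells (16.1%) and 32 lower (7.71%), and in control 238 of 1254 were higher (19.0%) and 112 lower (8.93%). The balance depends on the scaling, since without the 5 genes, Elane, S100a8 and S100a9 in the total the calls were 11.1% higher and 12.8% lower in non_mCherry and 10.2% higher and 17.1% lower in control. Late neutrophil genes were higher for 10 of 25 in non_mCherry and 18 of 29 in control, and none was lower. With the other scaling 10 were higher and 1 lower in non_mCherry, and 12 higher and 3 lower in control. Clec4d, a C-type lectin receptor gene, was at 482 CPM in non_mCherry and 563 CPM in control low-share cells, against 40.9 and 33.1 CPM in high-share cells. Csf3r, the receptor of granulocyte colony-stimulating factor, was at 482 and 574 CPM, against 102 and 72.8 CPM. Junb, an immediate early transcription factor, was at 965 and 1824 CPM, against 245 and 364 CPM.

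Genes lower in the low-share cells included parts of the granule and oxidase programs. Cybb, the catalytic subunit of the phagocyte NADPH oxidase, was at 322 CPM in non_mCherry and 360 CPM in control low-share cells, against 1186 and 2316 CPM in high-share cells. Lyz2, which encodes lysozyme, was at 6243 and 6283 CPM, against 17111 and 15033 CPM. Anxa1, which encodes annexin A1, was at 1983 and 1306 CPM, against 4252 and 4453 CPM. Of the 7 NADPH oxidase genes, 2 were lower in each library and 1 was higher in non_mCherry only, a difference between libraries that was not tested. Mgst2, a microsomal glutathione transferase gene, was at 80.4 and 45.04 CPM, against 348 and 331 CPM.

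Against the Elane cells, the members as a whole differed in many genes. In non_mCherry, 436 of 3105 measured genes were called higher in members (14.0%) and 1302 lower (41.9%). In control, 422 of 3176 were higher (13.3%) and 663 lower (20.9%). The control count of lower genes was 1063 without cells of high doublet score and 1076 without members of at least 20 Elane UMIs, over 1.5 times the 663 on which the shared count rests. Of the calls over all members, 321 higher genes and 604 lower genes were shared, which is 73.6% and 76.1% of the higher and 46.4% and 91.1% of the lower calls in non_mCherry and control. The median ratio over all measured genes was -0.78 in non_mCherry and -0.44 in control on the log2 scale. Scaled to the total without the 5 genes, Elane, S100a8 and S100a9, these medians were 0.04 and 0.06. The calls then were 973 higher (26.4%) and 690 lower (18.7%) of 3690 in non_mCherry, and 749 higher (21.0%) and 185 lower (5.19%) of 3563 in control.

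Secondary and tertiary granule genes outside the rule were higher in members for 22 of 23 measured genes in each library and lower for none, with median log2 ratios of 5.001 in non_mCherry and 4.58 in control. The members were chosen by other genes of this kind, so the direction is a description. Retnlg was at 11649 CPM in non_mCherry and 5333 CPM in control members, against 0.734 and 6.39 CPM in Elane cells. Cd177 was at 1188 and 730 CPM, against 0.685 and 0.618 CPM. Ifitm6, a neutrophil member of the interferon-induced transmembrane family, was at 1573 and 1162 CPM, against 2.30 and 3.87 CPM. Mmp8 was at 820 and 589 CPM, against 1.42 and 1.87 CPM. All 4 genes were under 10 CPM in the Elane cells of both libraries.

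Late neutrophil genes were higher in members for 28 of 29 genes in non_mCherry and 24 of 26 in control and lower for none, with medians of 3.68 and 3.90. S100a9 stood out, at 130257 CPM in non_mCherry and 91647 CPM in control members, against 9.39 and 56.6 CPM in Elane cells. Il1b was at 224 CPM in non_mCherry and 359 CPM in control members, against 0.342 and 1.42 CPM in Elane cells. The NADPH oxidase genes, which make the respiratory burst, were higher for 6 of 7 in each library, with medians of 2.58 and 1.91. Cybb was at 903 and 1139 CPM, against 26.4 and 38.4 CPM. Cyba, the membrane partner of Cybb, was at 2422 and 1827 CPM, against 365 and 432 CPM. The genes Chil1, Plbd1 and Pirb, which are in none of the lists, were also among the 15 genes furthest up. Pirb, an inhibitory receptor gene of myeloid cells, was at 236 and 218 CPM, against 0.245 and 0.851 CPM.

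Primary granule genes were lower in members for 11 of 16 genes in non_mCherry and 11 of 17 in control and higher for 2 in each, with medians of -1.87 and -1.31. The Elane cells were chosen by a primary granule gene, so this direction is tied to their choice and is a description. Mpo was at 70.4 CPM in non_mCherry and 1466 CPM in control members, against 5090 and 5270 CPM in Elane cells. Of the 1157 Mpo UMIs in control members, 954 lay in the 10 Elane-carrying cells (4476 CPM), of which 7 had a high doublet score, and the control cycle-rich, high-share and low-share sets were at 106, 139 and 270 CPM. Ctsg, which encodes cathepsin G, was at 339 and 894 CPM, against 4053 and 4012 CPM. Prtn3 was at 766 and 2788 CPM, against 8015 and 8468 CPM. With the other scaling 9 of 16 and 8 of 17 were lower. Prg2, an eosinophil granule gene, had 1 UMI in non_mCherry and 7 in control members (4.14 and 8.87 CPM), against 439 and 191 CPM. Outside the granule lists, the endoplasmic reticulum chaperone gene Calr was at 364 and 704 CPM in members, against 2888 and 2528 CPM. Phgdh, the entry enzyme of serine synthesis, was at 53.8 and 113 CPM, against 396 and 404 CPM.

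Of 28 measured transcription factors and receptors of the granulocyte list, 12 were higher and 10 lower in non_mCherry. In control 14 of 28 were higher and 6 lower. Among all measured genes 14.0% and 13.3% were higher and 41.9% and 20.9% lower, so the lower calls of the list were near or under the share of all genes. Cebpe was at 642 CPM in non_mCherry and 518 CPM in control members, against 146 and 103 CPM in Elane cells. Id2, an inhibitor of basic helix-loop-helix factors, was at 86.9 and 82.3 CPM, against 3.96 and 3.77 CPM. Cd34, a progenitor antigen gene, was at 4.14 and 44.3 CPM, against 160 and 162 CPM, and Irf8, a factor of monocyte fate, at 12.4 and 125 CPM, against 183 and 348 CPM. Myb, a factor of progenitors, was at 37.3 CPM in non_mCherry members, against 354 CPM in non_mCherry Elane cells, and at 109 CPM in control members, against 314 CPM in control Elane cells.

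Housekeeping groups depended on the scaling. Cytosolic ribosomal protein genes were lower in members for 74 of 76 in non_mCherry and 57 of 76 in control, but with the total freed of the abundant genes for 26 and 1. Nuclear oxidative phosphorylation genes were lower for 34 of 74 and 14 of 75, near the 41.9% and 20.9% lower among all measured genes, and with the other total for 10 and 1. The ribosomal medians were -1.52 in non_mCherry and -1.09 in control, beyond the all-gene medians of -0.78 and -0.44. S phase genes were lower for 12 of 30 in non_mCherry and 4 of 31 in control, at or under those shares of all genes, and higher for none. In summed UMIs, G2 and M phase genes were higher for 9 of 29 and 5 of 28 and lower for 2 and 1. Ube2c, a ubiquitin-conjugating enzyme of mitosis, was at 397 and 257 CPM, against 71.8 and 86.1 CPM. The median cell went the other way for the sum of this list. It was at 2380 CPM in non_mCherry and 3715 CPM in control members, against 4139 and 4644 CPM in Elane cells. The glucose transporter gene Slc2a3 was at 145 CPM in non_mCherry and 146 CPM in control members, against 5.38 and 6.43 CPM, while of 14 and 13 glycolysis genes 2 and 1 were higher and 2 and 1 lower. Of the interferon response genes, 2 of 9 in non_mCherry and 3 of 11 in control were higher, beside 14.0% and 13.3% of all genes, and 3 were lower in each.

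**Figure D4:**
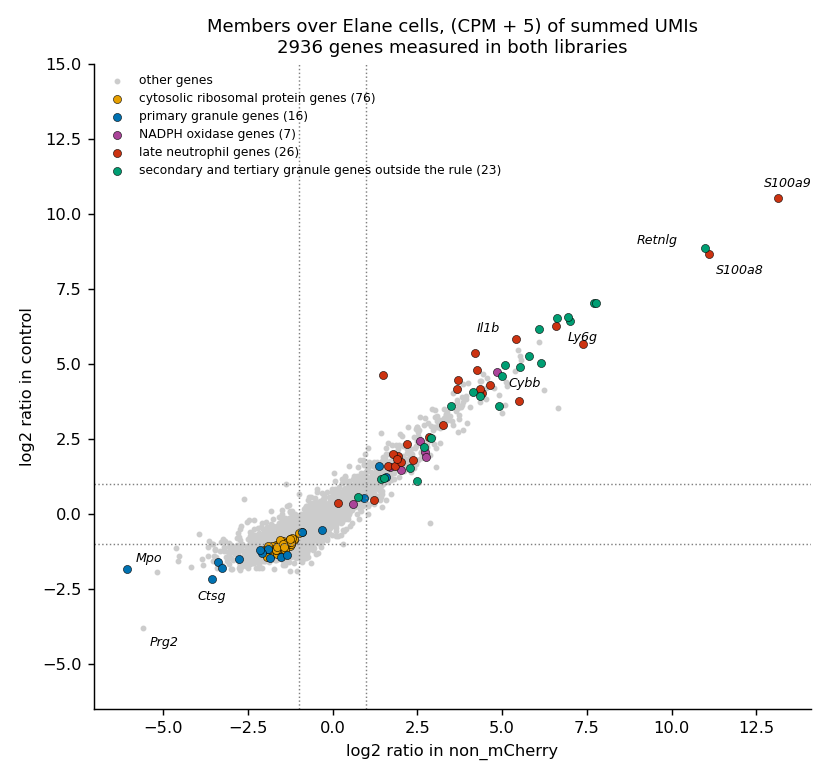
Each point is a gene measured in both libraries (2936 genes), with the log2 ratio of members over Elane cells in non_mCherry on the x axis and in control on the y axis, and color for gene lists. Secondary and tertiary granule genes (medians 5.001 and 4.58) and late neutrophil genes lie at the upper right, and primary granule genes such as Mpo (-6.08 and -1.84) at the lower left.

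Markers of other lineages were summed in the members of each library. Of 10 basophil and mast cell markers, 7 had a UMI in non_mCherry members (summed level 1917 CPM, cells from 0 to 19592 CPM with a median of 421) and 8 in control members (353 CPM, cells from 0 to 3212 CPM with a median of 346), with Tpsb2 and Tpsab1 at 0 in both. In non_mCherry low-share cells only Mcpt8 and Hdc of this list had a UMI, at a sum of 589 CPM. The median is therefore not a count of basophils or mast cells. Of 10 megakaryocyte markers, 6 in non_mCherry (443 CPM, cells from 0 to 4178 CPM) and 8 in control (275 CPM, cells from 0 to 3467 CPM) had a UMI, and Gp6 and Ppbp were at 0 in both. Of 10 B lineage markers, 9 in non_mCherry (273 CPM, cells from 0 to 4519 CPM) and 3 in control (29.1 CPM, cells from 0 to 912 CPM) had a UMI, and Pax5 was at 0 in both. The high ends of these ranges come from a few cells.

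Of 15 monocyte and macrophage markers, 9 in non_mCherry (2178 CPM) and 15 in control (2482 CPM) had a UMI, with F13a1, Ly86, Klf4, Cx3cr1, Fn1 and Mrc1 at 0 in non_mCherry. The monocyte list also holds genes that neutrophils use, among them Ly6c2 and Lgals3, so its sum is not a count of monocytes. Of 15 erythroid markers, 8 in non_mCherry (124 CPM) and 13 in control (274 CPM) had a UMI, below the 195 and 347 CPM of the Elane cells. Of 9 eosinophil markers, 3 and 4 had a UMI (29.0 and 31.7 CPM), of 9 T, NK and innate lymphoid markers 2 and 3 (161 and 241 CPM), of 9 dendritic cell markers 5 and 7 (70.4 and 364 CPM), and of 12 stem and multipotent progenitor markers 8 and 11 (82.8 and 131 CPM). The dendritic list was at 303 CPM in non_mCherry and 274 CPM in control Elane cells. H2-Aa and H2-Eb1 were at 0 in non_mCherry members, and 1 control low-share member was at 18262 CPM for the list. The part of such cells in the results was not tested.

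The 2 libraries were compared within the members. Of 2588 measured genes, 40 were called higher in non_mCherry (1.55%) and 247 lower (9.54%). Among S100-rich members alone, 40 of 2510 were higher (1.59%) and 165 lower (6.57%). Within Elane cells, with far more cells, 9 of 2760 were higher (0.326%) and 7 lower (0.254%), or 0.288% and 0.252% with the total freed of the abundant genes. The all-gene median was -0.28 for members and -0.02 for Elane cells, and -0.06 for members with the total freed of the abundant genes. That scaling gave 135 higher (3.79%) and 249 lower (6.99%) of 3562, so that the share of lower calls among all calls depends on the scaling.

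In several of the largest differences, 1 cell held most of the UMIs. Prss34, a basophil serine protease gene, was at 824 CPM in non_mCherry and 16.5 CPM in control members, and 99.0% of the non_mCherry UMIs were in 1 Elane-carrying cell. The basophil genes Mcpt8, at 567 and 41.8 CPM, and Cpa3, at 182 and 15.2 CPM, had 99.3% and 95.5% of their non_mCherry UMIs in 1 cell each. BC100530, a stefin A family gene, was at 306 and 6.33 CPM with 70.3% in 1 cell. Among the lower genes, Cd74, the invariant chain of MHC class II, was at 4.14 and 112 CPM with 95.5% of the control UMIs in 1 cell. Pf4 was at 286 and 122 CPM, with 68 of its 69 non_mCherry UMIs in 1 cell. The second non_mCherry cell with BC100530 held the rest of its UMIs, so that difference was not confined to 1 cell.

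Gm5483 and Asprv1 were spread over more cells. Gm5483, a stefin A family gene, was at 497 CPM in non_mCherry (7 of 28 cells) and 51.9 CPM in control (5 of 117 cells), a 9.57-fold difference (95% interval of the counts 6.66 to 14.0). Asprv1, an aspartic peptidase gene, was at 219 CPM in 12 cells and 34.2 CPM in 9 cells, 6.42-fold higher (3.96 to 10.6). Stfa3 was at 103 and 2.53 CPM, with 25 and 2 UMIs. Acvrl1, a receptor of the TGF-beta family, was at 141 and 26.6 CPM, 5.29-fold higher (2.98 to 9.59). H2-Q7, a class I gene, was at 149 and 31.7 CPM. H2-Q7 and the stefin A genes have near-identical copies in the genome, and how reads shared by copies were counted is not given in the sources used here, so their levels are uncertain. In the low-share set Gm5483 was at 3162 CPM in non_mCherry and 462 CPM in control.

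Cxcl2, a chemokine gene that recruits neutrophils, was among the 10 genes furthest down. It was at 74.5 CPM in non_mCherry (7 of 28 cells) and 609 CPM in control (36 of 117 cells), 0.122-fold (0.0719 to 0.195). In the low-share set, where most of its UMIs lay, it was at 429 CPM in non_mCherry (6 of 10 cells) and 4853 CPM in control (24 of 29 cells). The Elane-carrying and cycle-rich cells carried little of it, with 37.4 and 18.8 CPM in Elane-carrying and 0 and 8.51 CPM in cycle-rich cells. Of 14 immediate early and stress genes, 4 were lower in non_mCherry and none was higher, beside 9.54% lower and 1.55% higher among all measured genes. Fos was at 145 CPM in non_mCherry and 428 CPM in control, Nr4a1 at 29.0 and 93.7 CPM, and Atf3 at 4.14 CPM (1 UMI) and 55.7 CPM. The members' share of low-share cells was 35.7% of S100-rich members in non_mCherry and 31.5% in control. The part of the cells' makeup in this difference was not tested.

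Mpo was at 70.4 CPM in non_mCherry and 1466 CPM in control members, a log2 ratio of -4.29. It was -4.31 among S100-rich members, -3.00 without cells of high doublet score and -3.50 without the members with at least 20 Elane UMIs. The S100-rich members still hold the Elane-carrying cells. The choice by Elane UMIs still holds the mixed-marker control cells, with 128 of the 1157 control Mpo UMIs. None of these choices left out both kinds of cells. In erythroid cells Mpo was at 154 CPM in non_mCherry and 362 CPM in control, and the S100-rich sets other than the Elane-carrying one lay below these values, for example at 53.6 and 270 CPM in low-share cells. The part of free RNA in the Mpo difference was not tested. Primary granule genes as a list were lower for 6 of 16 and higher for none, beside 9.54% lower and 1.55% higher among all measured genes. The list summed to 6371 CPM in non_mCherry and 13410 CPM in control members, and to 14281 and 35758 CPM in Elane-carrying cells. In the other sets the libraries were closer, at 4076 and 3399 CPM in cycle-rich cells and 3373 and 3136 CPM in high-share cells. Low-share cells were at 5225 and 6013 CPM, and the mixed-marker control cells at 13389 CPM. Secondary and tertiary granule genes were higher for 2 of 23 (Ceacam10 and Retnlg) and lower for none, with a median of 0.41 beside -0.28 over all genes. Of 30 late neutrophil genes 6 were higher and 2 lower, and of 11 interferon response genes 2 were higher and 1 lower, with Ifitm1 at 815 CPM in non_mCherry and 303 CPM in control. The lower calls of these 2 lists were near or under the share of all genes. None of 76 ribosomal protein genes and none of 7 NADPH oxidase genes was called in either direction.

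**Figure D5:**
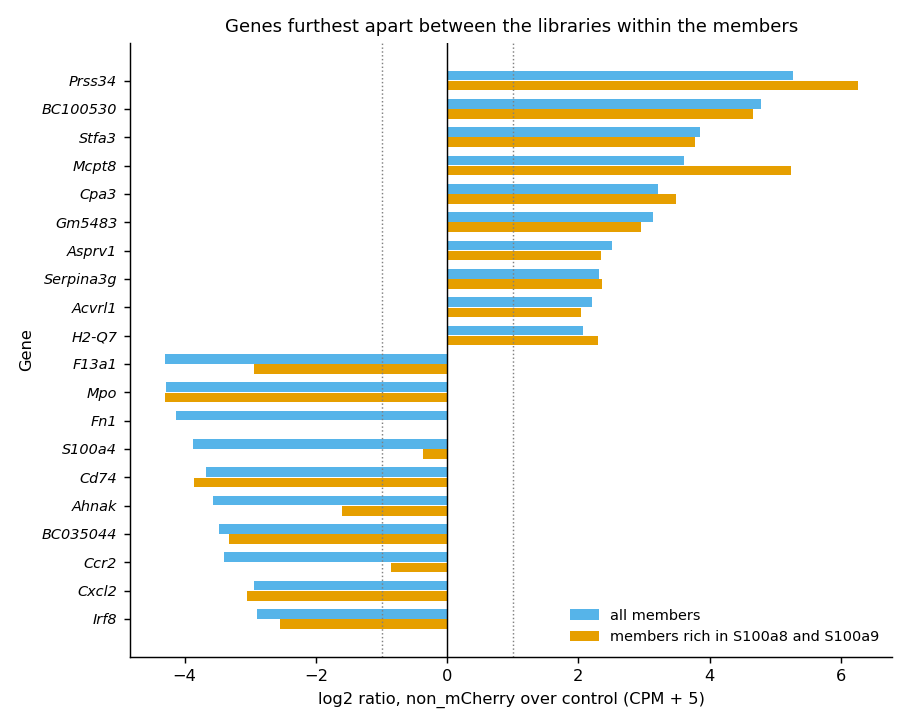
Bars give the log2 ratio of non_mCherry over control for the 10 genes furthest up and the 10 furthest down within the members, over all members and over S100-rich members only. Fn1, S100a4 and Ccr2 are far below 0 over all members and at 0, -0.37 and -0.86 over S100-rich members, while Mpo and Cxcl2 stay at -4.31 and -3.05.

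Several lower genes belonged to the control members that were poor in S100a8 and S100a9. Fn1, which encodes fibronectin, had 0 UMIs in non_mCherry members (a level of up to 12.4 CPM, that of 3 UMIs) and 82.3 CPM in control members, all in cells poor in S100a8 and S100a9. F13a1, a coagulation factor subunit of monocytes, had 0 UMIs in non_mCherry and 93.7 CPM in control, and S100a4 0 UMIs and 68.4 CPM. Ccr2, the chemokine receptor of inflammatory monocytes, was at 4.14 CPM in non_mCherry and 91.2 CPM in control. Within S100-rich members F13a1 was at 33.4 CPM in control and Ccr2 at 11.6 CPM. Monocyte markers were lower for 6 of 8 measured genes over all members and for 1 of 3 over S100-rich members. Among all measured genes these shares were 9.54% and 6.57%.

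The 8 Chil3-led control cells met the share through Chil3 alone. Chil3 was 97.3% of their UMIs of the 5 genes, and Camp, Ngp and Ltf had 0 UMIs. Chil3 was at 8254 CPM, Lyz2 at 29352 CPM, Lgals3 at 2569 CPM and Fn1 at 1876 CPM. Ccr2 was at 1674 CPM, Ms4a6c at 1472 CPM and F13a1 at 1241 CPM, while S100a9 was at 28.9 CPM. All 15 monocyte and macrophage markers had UMIs in them, at a sum of 13709 CPM, against 2005 CPM in control S100-rich members. The label of neutrophils therefore went against the leading genes of these 8 cells.

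The 17 mixed-marker control cells carried low levels of genes of several lineages at once. Camp was at 2267 CPM and S100a9 at 4563 CPM, beside Mpo at 1921 CPM, Elane at 1201 CPM and Pf4 at 1351 CPM, and 16 of the 17 cells had UMIs of Pf4, Mpo and Elane together. Their erythroid markers summed to 1246 CPM, against 185 CPM in control S100-rich members. Camp, Ngp, Ltf, Lcn2 and Chil3 made up 37.1%, 30.7%, 11.3%, 18.2% and 2.70% of their UMIs of the 5 genes, beside the 38.8%, 33.6%, 7.08%, 14.7% and 5.80% of all control members. Their share of the 5 genes ran from 0.502% to 0.886%, at the threshold, and their doublet scores were all under 0.25. The part of free RNA in these cells was not tested. A further 56 control cells and 1 non_mCherry cell had a share of 0.25 to 0.5%.

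Below the threshold, Lcn2 differed from the other 4 genes in the Elane cells. It was at 94.6 CPM in non_mCherry (630 of 1041 cells with a UMI) and 28.6 CPM in control (1022 of 2783 cells), 3.31-fold higher. Camp was at 2.05 CPM in non_mCherry and 3.01 CPM in control, Ngp at 1.17 and 2.79 CPM, Ltf at 0.685 and 0.634 CPM and Chil3 at 1.81 and 6.73 CPM. In erythroid cells, which should lack it, Lcn2 was at 4.79 CPM in non_mCherry and 3.74 CPM in control, at median depths of 15803 and 20336 UMIs beside 19376 and 20786 in Elane cells. S100a8 was lower in non_mCherry Elane cells, at 44.2 CPM against 165 CPM in control, 0.268-fold (0.2497 to 0.2865). In the secondary granule cells Lcn2 was at 17511 CPM in non_mCherry and 11785 CPM in control. Lcn2 is 1 of the 5 genes of the rule, so its values in both kinds of cells are a description.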

How the data were processed

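Bone marrow cells of 3 libraries (non_mCherry, mCherry and control) were analysed from filtered gene by cell matrices of raw UMI counts, as deposited by the authors. Cell Ranger 6.1.2 and the mm10 build are named for the counts, per the submitters' processing notes, whereas software version 3.1.0 is named per the file headers. The handling of reads shared by gene copies is not given in the sources used here.

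From there, cells were filtered (at least 500 genes and 1000 UMIs, under 10% mitochondrial UMIs) and UMIs were summed over the cells of a set and library and scaled to CPM. Ratios are log2 of (CPM + 5) over (CPM + 5). Genes with at least 50 CPM in 1 set and 20 UMIs over both were measured and called at a 2-fold ratio, and the 5 genes of the rule and Elane were left out. With 1 library per group no test across samples was possible. Intervals are exact 95% Poisson, Clopper-Pearson or conditional binomial intervals and cover counting error only. A gene at 0 is limited by the level of 3 UMIs. Doublets were kept and scored against simulated cell pairs on 30 principal components of 2000 genes, with a threshold of 0.25. On simulated counts, 98.5% of 200 genes changed 4-fold were called in the non_mCherry comparison with Elane cells (2790 genes) and 100.0% in control (2729 genes). Of unchanged genes, 1.12% and 0.0% were called. The counts were drawn from the mean profile of the Elane cells without variation between cells, so these rates do not cover genes carried by single cells.

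The members and gene lists were chosen with earlier results of these data known, and the sets within the members after their values were seen. Named genes are the 15 furthest up and down against Elane cells by the smaller of the ratios of both libraries, the 10 furthest up and down between libraries, and the leading members of each list. Genes named between sets of members and the genes of the ranges of share were chosen after their values were seen. Alternatives covered the least share, cell filters, doublets, pseudocount, scaling, averaging over cells, least level, depth and the kinds of cells kept. Python 3.11.15, numpy 2.4.6, scipy 1.17.1, pandas 2.3.3, scikit-learn 1.9.0 and matplotlib 3.10.9 were used. Promoter sequences are from RefSeq (GRCm38.p6).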

Additional observations from a re-analysis of the deposited data

Results flagged for a closer look

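The mCherry library, which entered none of the comparisons, held 10 cells of 10512 with at least 0.5% of their UMIs in the 5 genes (0.0951%; 95% Clopper-Pearson interval 0.0456 to 0.175), at a median of 11164 UMIs. All 10 were rich in S100a8 and S100a9. They fell into the Elane-carrying set (3 cells), the cycle-rich set (1), the high-share set (2) and the low-share set (4).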

How the results depend on the processing

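No paired analysis was possible because each group is 1 library, and no replicate could be left out for the same reason. Of 134 comparison values under alternatives, 95 stayed within 1.5 times or within counting error and 39 moved. These values are counts and shares, for which no reversal was defined. The balance of calls against Elane cells did change sides with scaling. In non_mCherry, 436 higher and 1302 lower became 806 and 511 with median-of-ratios scaling, and in control 422 and 663 became 645 and 136. Of 4220 log2 ratios of single genes and lists, 3409 stayed within counting error or, for list medians, within a fixed band. A further 801 moved and 10 reversed. A change of sign was called a reversal only where the reported log2 ratio was at least 1 in size. The cause was not tested where a value moved.

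The control share of members was 1.87% with a least share of 0.25%, 0.877% with 1%, 0.704% with 2%, 1.004% with at least 1000 genes and 2000 UMIs per cell, and 0.996% for S100-rich members only. This last choice, and that of members with fewer than 20 Elane UMIs, was made after seeing the data.

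Calls against Elane cells moved as follows. In non_mCherry they were 806 higher and 511 lower with median-of-ratios scaling, 973 and 690 with the total without the abundant genes, 689 and 2132 with a least level of 20 CPM, and 260 and 737 with 100 CPM. In control they were 645 and 136, 749 and 185, 695 higher at 20 CPM, and 241 and 412 at 100 CPM. Control lower calls were also 1063 with doublet scores under 0.25, 440 with a pseudocount of 20 CPM, 1078 with the mean of the CPM of each cell, and 1076 with fewer than 20 Elane UMIs.

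Calls of non_mCherry over control in members were 161 lower with a least share of 1%, 24 higher and 129 lower with a pseudocount of 20 CPM, 98 and 125 with median-of-ratios scaling, and 135 higher with the total without the abundant genes. They were 417 lower with the mean of cells, 63 higher and 664 lower at 20 CPM, and 22 and 97 at 100 CPM. In Elane cells they were 5 higher with the larger pseudocount, 19 higher and 13 lower at 20 CPM, and 4 higher at 100 CPM.

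Log2 ratios that reversed were those of few cells. Against control Elane cells, Pf4 was -0.12 with a least share of 1% and -0.013 in S100-rich members, and Fn1 was -0.43 in S100-rich members. For non_mCherry over control, Pf4 was -3.11 without members with markers of other lineages and -0.64 with the mean of cells, and the monocyte list median was 0.13 in S100-rich members. With fewer than 20 Elane UMIs, Mcpt8 was -2.92 and the basophil list median -2.64 against non_mCherry Elane cells, and Mcpt8 was -2.47 and Prss34 -0.72 for non_mCherry over control. The 28 non_mCherry members hold 241561 UMIs, so a gene with 0 UMIs there may stand at up to 12.4 CPM.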
